A study of Homo sapiens with 9 samples.

Results

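Transcripts of 10 genes of the Notch pathway were followed in stable lines made from HEK293, a line of human embryonic kidney origin, each carrying an HA-tagged form of MEK1. They are the receptors NOTCH1, NOTCH2 and NOTCH3, the glycosyltransferase LFNG, the ligands JAG1, JAG2 and DLL1, and the nuclear factors HES1, HES6 and HEY1. Members were taken as every probe, other than control probes, whose gene name in the scanner output was one of these symbols, which gave 16 probes on 34 spots, out of 38553 gene names and 50598 probes on the array. All 16 probes passed the filter on dim probes, which left 25397 probes of 19205 genes in the whole set, and all were well above background on all 9 arrays with 0 saturated. The cells carried a pQCXIP plasmid for MEK1 WT, for F53S, a mutant found in RASopathies (congenital disorders of RAS-ERK signaling), or for K57N, a mutant found in cancer. All 3 lines were selected with puromycin, cultured in serum without further stimulation and profiled in 3 experiments each, on 9 single-color Agilent arrays. Each construct was represented by 1 stable line, so that the mutation and any other difference between lines cannot be told apart, and the tagged protein came on top of the MEK1 of the host cells. The source names of WT replicates 2 and 3 read HEK294 and HEK295, whereas their cell line tags read HEK293, and they were taken as HEK293.

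Notch receptors are membrane proteins that bind Jagged and Delta ligands on a neighboring cell. Binding exposes the receptor to cleavage by ADAM10 and then by gamma-secretase, and the released intracellular domain joins RBPJ and Mastermind on target promoters. Several HES and HEY genes, which encode basic helix-loop-helix repressors, are the best known targets. Fringe enzymes such as LFNG modify the sugars on the receptor and change which ligands it answers to. MEK1 activates ERK, and the comparison of the 3 lines addresses how transcripts of this second pathway stood in cells with a moderately or a highly active MEK1.

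In K57N cells, the ligands JAG1 and DLL1 were higher than in WT cells, by a log2 difference of 1.01 for JAG1 and 0.85 for DLL1, and the receptors NOTCH2 and NOTCH3 were lower, by -0.55 and -0.97. On slide 2 alone, which holds 2 of the 3 arrays per line, the differences were 0.75, 0.59, -0.49 and -0.37 in the same order. Without the K57N array of slide 1, DLL1 differed by 0.44 and NOTCH3 by -0.63, and a second NOTCH2 probe gave 0.06 over all arrays. For these 4 genes, 2 of 10 higher and 2 of 10 lower, the K57N and WT arrays were fully separated, as they were for 10.3% and 12.6% of all genes. As whole cultures were measured, fewer cells with a transcript and less of it per cell cannot be told apart. None of the 10 genes was called in the fit without the slide (1.52% of all genes higher and 0.734% lower), and JAG1 alone was called higher once the slide on which an array lay was added to the fit (2.57% higher and 1.97% lower). Leaving out 1 array moved the 291 higher and 141 lower genes behind the first shares to between 158 and 342 higher and between 48 and 184 lower. HES1, HES6 and HEY1 differed by -0.38 to 0.26 and were not called. In F53S cells, no member differed from WT cells by more than 0.15 on the log2 scale in the probe that represents it. With 1 array left out, the difference reached up to 0.42, for NOTCH1.

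The arrays lay on 2 slides. Replicate 1 of each line was on slide 1 and replicates 2 and 3 on slide 2. Levels are given as the log2 of the processed signal relative to the 75th percentile of the same array, so that 0 is the signal at that percentile. This percentile was 285, 245 and 376 in the WT, F53S and K57N arrays of slide 1 and between 695 and 821 on slide 2. Differences are therefore given also with slide in the fit, and within each slide. As a check of the labels, 10 transcripts known to follow ERK activity were read. Relative to WT cells, 9 of 10 were called up in K57N cells (median log2 difference 3.35), and 0 of 10 in F53S cells (median 1.32). The F53S differences ran from 0.46 to 3.61, and even the largest, of ETV4, was not called (limma, adjusted p = 0.320). A count of 0 in F53S cells therefore does not show that transcripts were unchanged. MAP2K1, which encodes MEK1, had mean levels of 2.37, 2.45 and 2.85 in WT, F53S and K57N cells, and whether its probe lies in the part carried by the plasmid was not analysed here. Of 4 markers expected in HEK293 cells, VIM, NEFL and PAX2 were well above background on all 9 arrays and NEFM was so on 2 arrays of each line. The epithelial markers CDH1 and EPCAM were well above background on at most 1 array per line. Of 4 fibroblast markers, only COL1A1 was well above background on all 9 arrays, and COL1A2 and DCN were so on none. The summed fibroblast signal was 0.774 to 1.34 times the 75th percentile in WT, 0.751 to 1.11 in F53S and 0.443 to 0.497 in K57N arrays. That sum rested almost wholly on COL1A1, whose mean level was -0.18 (WT), -0.40 (F53S) and -1.38 (K57N). Mean levels of COL1A2, DCN and LUM lay between -6.94 and -4.26, and these genes did not pass the filter. COL1A1 differed by -1.20 between K57N and WT (limma, adjusted p = 0.0995 without slide and 0.0033 with it). The sum thus follows 1 gene and does not show a change in cell type. Its part in the results below was not tested. The summed signals of 3 endothelial and 4 blood cell markers overlapped between WT and K57N arrays, and PECAM1 was well above background on 2 K57N arrays and on none of the other lines.

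The HES1 promoter, the classic Notch-responsive promoter, is shown with that of LFNG, the other member with a match to the RBPJ letters, and that of JAG1, the member called with slide in the fit. Each line gives the 250 bases before the RefSeq start on GRCh38.p14, read 5′ to 3′ on the strand of the gene, with the letters TGGGAA in capitals. HES1 is at chr3:194135898-194136147 on the plus strand, LFNG at chr7:2517613-2517862 on the plus strand, and JAG1 at chr20:10674000-10674249 on the minus strand.
HES1: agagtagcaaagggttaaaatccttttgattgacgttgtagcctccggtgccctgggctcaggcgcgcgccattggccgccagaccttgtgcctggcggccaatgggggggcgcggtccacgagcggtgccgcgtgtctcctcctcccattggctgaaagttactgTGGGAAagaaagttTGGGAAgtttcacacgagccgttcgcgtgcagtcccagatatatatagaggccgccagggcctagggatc
LFNG: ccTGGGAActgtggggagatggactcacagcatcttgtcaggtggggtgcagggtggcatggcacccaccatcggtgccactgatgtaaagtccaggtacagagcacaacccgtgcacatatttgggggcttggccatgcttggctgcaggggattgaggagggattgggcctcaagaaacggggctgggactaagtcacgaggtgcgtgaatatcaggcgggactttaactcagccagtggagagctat
JAG1: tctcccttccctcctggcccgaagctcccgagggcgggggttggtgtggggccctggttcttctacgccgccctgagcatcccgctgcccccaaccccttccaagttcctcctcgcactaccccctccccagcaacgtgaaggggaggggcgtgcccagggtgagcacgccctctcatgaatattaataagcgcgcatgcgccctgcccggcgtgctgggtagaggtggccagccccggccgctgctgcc
The HES1 promoter held 2 matches, at bases 84 to 79 and 70 to 65 before the start, and the LFNG promoter held 1, at bases 248 to 243. The sequence table held 9 promoters of 8 members, without DLL1 and HEY1, and these 2 promoters were the ones with a match on either strand. TGGGAA or its reverse complement was present in 20.8% of the 35116 promoters in the table. Letters of the AP-1 site, TGANTCA, were in 0 of the 9 promoters and in 6.57% of all promoters. The N-box letters CACNAG, which HES repressors can bind, were in 3 of the 9 and in 32.0% of all. The N-box matches lay in the promoters of HES1, with 3, and of NOTCH3 and LFNG, with 1 each. A match describes the letters only.

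The probes of NOTCH1, NOTCH2 and HES1 given next are shown because their place in the transcript bears on what they read. NOTCH1 probe 1 ends in the stop codon, in capitals, and so reads the end of the coding sequence. NOTCH2 probe 2 is listed with accessions of NOTCH2 and of its human-specific partial copy NOTCH2NLA and cannot tell them apart. The HES1 probe crosses an intron.
NOTCH1 probe 1: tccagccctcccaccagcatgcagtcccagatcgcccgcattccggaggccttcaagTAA
NOTCH2 probe 2: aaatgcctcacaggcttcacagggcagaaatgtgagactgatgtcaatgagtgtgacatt
HES1 probe: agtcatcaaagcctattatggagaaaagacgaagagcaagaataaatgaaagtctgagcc
On hg19, the build of the array's annotation, they lie at chr9:139390523-139390582 and chr1:120539807-120539866 on the minus strand, and at chr3:193854276-193854463 on the plus strand.

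**Figure D1:**
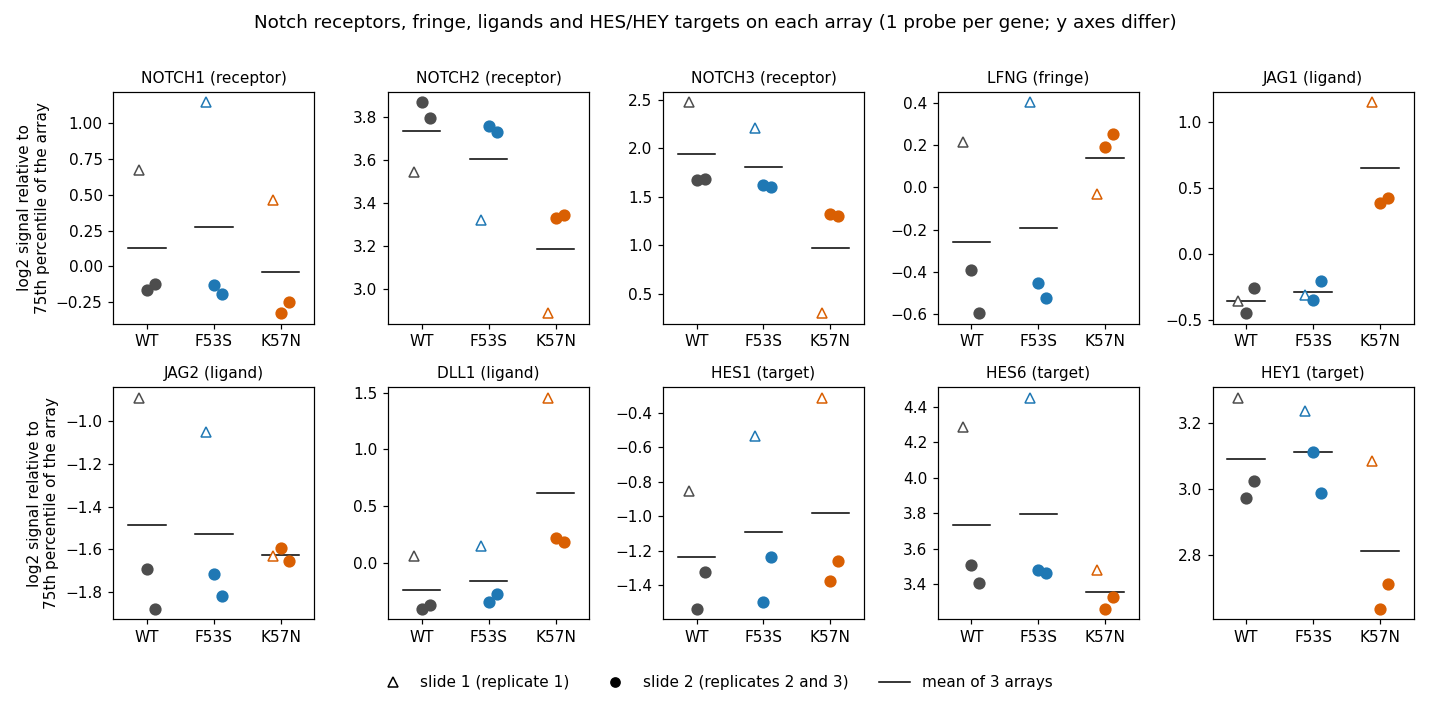
Log2 signal relative to the 75th percentile of the array (y axis, scaled per panel) for the probe that represents each of the 10 genes in WT, F53S and K57N cells (x axis). Open triangles are the arrays of slide 1, filled circles those of slide 2 and bars the mean of 3 arrays. JAG1 and DLL1 were highest in the 3 K57N arrays, NOTCH2 and NOTCH3 were lower there than in WT.

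JAG1, a Jagged ligand that activates Notch receptors on adjacent cells, had with NOTCH3 the largest mean K57N differences from WT over the 3 arrays of each line. Its level was -0.36, -0.45 and -0.26 on the 3 WT arrays, -0.31, -0.35 and -0.20 on the F53S arrays, and 1.15, 0.38 and 0.42 on the K57N arrays, in the order of the replicates. All 3 K57N arrays lay above all WT and F53S arrays, and the K57N array of slide 1 stood above the other two. The log2 difference of K57N from WT was 1.01 ± 0.22 (standard error, 2.01-fold), which missed the limit in limma (adjusted p = 0.0583). With slide in the fit its standard error was 0.18 and JAG1 was called higher (limma, adjusted p = 0.0083), as it was with the replicate number as a block (limma, adjusted p = 0.0165). The difference was 1.51 on slide 1 and 0.75 on slide 2, so the value on slide 2 alone stayed under 2-fold (limma, adjusted p = 0.010). Leaving out the K57N array of slide 1 gave 0.76 as well. Against F53S cells, JAG1 was higher in K57N cells by 0.94 ± 0.22, with a limma adjusted p of 0.112 without slide and of 0.0155 with it. The difference of F53S from WT was 0.07, with a 95% interval from -0.44 to 0.57.

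DLL1, a Delta ligand, followed the same order of lines. Its level was 0.06, -0.40 and -0.37 in WT, 0.15, -0.35 and -0.28 in F53S, and 1.45, 0.22 and 0.18 in K57N cells. The K57N arrays again lay above all arrays of the other lines, with the array of slide 1 far above the rest. K57N exceeded WT by 0.85 ± 0.35 (1.81-fold, limma, adjusted p = 0.335), and with slide in the fit it was 0.85 ± 0.17 (limma, adjusted p = 0.0146), under the 2-fold limit. It was 1.39 on slide 1 and 0.59 on slide 2, and without the K57N array of slide 1 it was 0.44. Against F53S cells it was 0.78 (limma, adjusted p = 0.519 without slide and 0.0291 with it), and 0.36 without the K57N array of slide 1.

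JAG2, the other Jagged ligand, did not share this pattern. Its level was -0.89, -1.69 and -1.88 in WT, -1.05, -1.71 and -1.82 in F53S, and -1.63, -1.59 and -1.65 in K57N cells. The lines overlapped, and the WT and F53S arrays of slide 1 stood above all others. Between K57N and WT, JAG2 differed by -0.14 (95% interval -0.82 to 0.54). It was -0.74 on slide 1 and 0.16 on slide 2, so its direction turned between slides.

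NOTCH2, a broadly expressed receptor, was lower in K57N cells. Probe 1 gave 3.54, 3.87 and 3.80 in WT, 3.32, 3.76 and 3.73 in F53S, and 2.89, 3.33 and 3.35 in K57N cells. K57N lay below WT in all 3 pairs of arrays of the same replicate number, and below every WT array. The log2 difference was -0.55 ± 0.20 (limma, adjusted p = 0.275), and -0.55 ± 0.08 with slide in the fit (limma, adjusted p = 0.0045). It was -0.65 on slide 1 and -0.49 on slide 2 (slide 2 alone, limma, adjusted p = 0.0090). Against F53S cells it was -0.41, with a limma adjusted p of 0.583 without slide and 0.0189 with it, and it was -0.26 without the K57N array of slide 1. Probe 2, whose 60 bases are listed also for NOTCH2NLA, gave 0.06 for K57N against WT (95% interval -0.57 to 0.69), with levels between 0.78 and 1.60 over the 9 arrays.

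NOTCH3, a receptor best known from vascular smooth muscle, was the member whose K57N difference from WT varied most between slides. Its level was 2.47, 1.67 and 1.68 in WT, 2.21, 1.62 and 1.59 in F53S, and 0.30, 1.32 and 1.30 in K57N cells. All K57N arrays lay below all arrays of the other lines, and the K57N array of slide 1 was the lowest by far. Over all arrays that difference was -0.97 ± 0.35, and adjusted p was 0.257 without slide and 0.0917 with it (limma). It was -2.17 on slide 1 against -0.37 on slide 2, and the latter, under the 2-fold limit and so not called, had an adjusted p of 0.0146 on its own (limma). Leaving out the K57N array of slide 1 gave -0.63.

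NOTCH1 was read by 2 probes that did not give the same size. Probe 1, at the end of the coding sequence, gave 0.67, -0.17 and -0.12 in WT, 1.15, -0.13 and -0.19 in F53S, and 0.47, -0.33 and -0.25 in K57N cells. The lines overlapped, and the arrays of slide 1 were the highest of each line. The K57N difference from WT was -0.16 (95% interval -1.12 to 0.79). Probe 2, printed on 10 spots, gave -1.03, -1.37 and -1.55 in WT, -1.25, -1.50 and -1.58 in F53S, and -2.22, -1.87 and -1.99 in K57N cells, where all 3 arrays lay below the other lines. Its difference from WT was -0.71 ± 0.19 (limma, adjusted p = 0.119), and with slide in the fit adjusted p was 0.0196. Both probes were lower in K57N cells in 3 of 3 pairs of the same replicate number.

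LFNG, whose enzyme favors signaling from Delta over Jagged ligands, turned direction between slides. Probe 1 gave 0.22, -0.39 and -0.60 in WT, 0.40, -0.45 and -0.52 in F53S, and -0.03, 0.19 and 0.25 in K57N cells. On slide 2 both K57N arrays lay above the other lines, and on slide 1 the K57N array was the lowest. The K57N difference from WT was 0.40 ± 0.30 (limma, adjusted p = 0.738), made up of -0.25 on slide 1 and 0.72 on slide 2. The slide 2 value was under the 2-fold limit and so not called, with an adjusted p of 0.0097 on its own (limma). Probe 2 did not share it, with 0.02 on slide 2 and -0.06 over all arrays (95% interval -1.40 to 1.28). Its level was -0.15, -1.70 and -1.45 in WT, 0.33, -1.54 and -0.83 in F53S, and -0.37, -1.53 and -1.59 in K57N cells, so that all lines overlapped and slide 1 stood above slide 2. F53S differed from WT by 0.42 in this probe, with a 95% interval from -0.92 to 1.76 without slide and from -0.00 to 0.85 with it.

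HES1, the repressor whose promoter holds the 2 matches to the RBPJ letters shown above, was not called in any comparison. Its level was -0.85, -1.54 and -1.33 in WT, -0.54, -1.50 and -1.24 in F53S, and -0.31, -1.38 and -1.26 in K57N cells. The lines overlapped and the array of slide 1 was the highest of each. K57N and F53S each lay above WT in 3 of 3 pairs of the same replicate number. The K57N difference from WT was 0.26, and 0.11 on slide 2. Its 95% interval ran from -0.57 to 1.08 without slide and from -0.04 to 0.55 with it. Without the K57N array of slide 1 the difference turned to -0.08.

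HEY1, a repressor of the related HEY family, gave 3.28, 2.97 and 3.02 in WT, 3.24, 3.11 and 2.99 in F53S, and 3.08, 2.64 and 2.71 in K57N cells. K57N was below WT in 3 of 3 pairs of the same number, although the K57N array of slide 1 lay above the WT arrays of slide 2. The difference was -0.28 ± 0.18, with a limma adjusted p of 0.643 without slide and 0.0684 with it.

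HES6, a HES family member that can oppose HES1, was read by 4 probes. Probe 1 gave 4.29, 3.51 and 3.40 in WT, 4.45, 3.48 and 3.46 in F53S, and 3.48, 3.26 and 3.33 in K57N cells. The K57N array of slide 1 lay among the WT arrays of slide 2, and both K57N arrays of slide 2 lay below them. The K57N difference from WT was -0.38 ± 0.33 (limma, adjusted p = 0.797), from -0.81 on slide 1 and -0.16 on slide 2, and it was -0.10 without WT replicate 1. The other 3 probes gave -0.25, -0.37 and -0.41, and all 4 probes were lower in K57N cells in 3 of 3 pairs, which is 1 set of arrays read at several places in a transcript and not separate evidence.

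**Figure D2:**
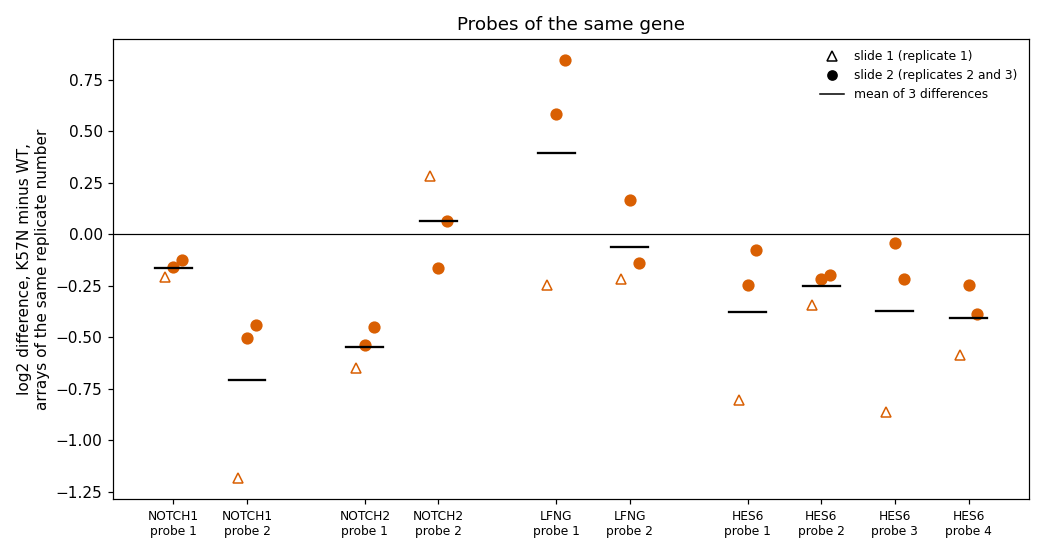
Log2 difference between the K57N and WT arrays of the same replicate number (y axis) for each probe of the 4 genes with several probes (x axis). Triangles are slide 1, circles slide 2 and bars the mean of 3 differences. The 4 HES6 probes were all below 0, whereas the probes of NOTCH1, NOTCH2 and LFNG gave means of -0.16 and -0.71, -0.55 and 0.06, and 0.40 and -0.06.

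Over the 10 genes, each represented by its brightest probe, 0 were called higher and 0 lower in K57N than in WT cells in limma (adjusted p below 0.05 and a difference over 2-fold), where 1.52% of all genes tested were called higher and 0.734% lower. At an unadjusted p below 0.05, limma gave 4 of 10 with no limit on the fold, namely JAG1, DLL1, NOTCH2 and NOTCH3, against 13.2% of all genes in either direction. The methods' t-test with the 2-fold limit called 0 after adjustment, against 0.427% of all genes higher and 0.135% lower, and 1 of 10 higher (JAG1) without adjustment, against 2.29% higher and 1.62% lower. With slide in the fit, 1 of 10 was called higher and 0 lower, against 2.57% and 1.97% of all genes. With slide in the fit and no limit on the fold, 2 of 10 (JAG1 and DLL1) were higher and 1 of 10 (NOTCH2) was lower, against 8.58% and 10.8% of all genes. On slide 2 alone and with no limit on the fold, 3 of 10 were higher (JAG1, DLL1 and LFNG) and 3 of 10 lower (NOTCH2, NOTCH3 and HEY1), against 10.9% and 11.6% of all genes. Arrays did not overlap for 2 of 10 higher and 2 of 10 lower members, against 10.3% and 12.6% of all genes. The median log2 difference of the 10 genes was -0.15, and that of all genes tested was -0.06. Both turned sign without WT replicate 1, to 0.13 and 0.04, and on slide 2 alone they were -0.015 and -0.020.

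In F53S cells, 0 of 10 were called higher and 0 lower than in WT cells, and 0% of all genes tested were called in either direction. At an unadjusted p below 0.05, limma gave 0 of 10, against 0.906% of all genes in either direction. The methods' t-test with the 2-fold limit gave 0 of 10 with or without adjustment, where without it 0.13% of all genes were higher and 0% lower. The log2 differences ran from -0.14 for NOTCH3 to 0.15 for HES1, and the lines did not separate for any member, against 1.55% of genes higher and 1.63% lower without overlap. On slide 2 alone and with no limit on the fold, 0 of 10 passed in limma, against 0.0104% of all genes higher and 0% lower. The 95% intervals with slide in the fit reached from -0.32 to 0.06 for NOTCH2 and from -0.34 to 0.48 for JAG1, and for NOTCH3 they reached -0.94 to 0.67. The median difference was 0.07 over the members and is to be read beside those intervals. Its sign depended on single arrays, with -0.18 without F53S replicate 1 and 0.24 without WT replicate 1.

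Between the mutants, 0 of 10 were called higher and 0 lower in K57N than in F53S cells, against 0.963% and 0.25% of all genes, and 2 of 10, JAG1 and NOTCH3, had an unadjusted p below 0.05 in limma, against 10.4% of all genes in either direction. The methods' t-test with the 2-fold limit called 0 of 10, against 0.125% of all genes higher and 0.0104% lower after adjustment and 1.74% and 0.864% without it. Arrays did not overlap for JAG1 and DLL1, which were higher, and for NOTCH3, which was lower, that is 2 and 1 of 10 against 8.34% and 10.3% of all genes. With slide in the fit and no limit on the fold, JAG1, DLL1 and NOTCH2 passed, 2 of 10 higher and 1 of 10 lower, against 5.85% and 7.53%. With the 2-fold limit in that fit 0 of 10 were called, against 1.9% higher and 1.11% lower, and without either slide or fold limit 0 of 10 passed, against 1.04% and 0.391%. On slide 2 alone with no limit on the fold, the same 3 genes as against WT were higher and the same 3 lower, against 7.53% and 7.71%. The differences from WT and from F53S share the same K57N arrays.

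**Figure D3:**
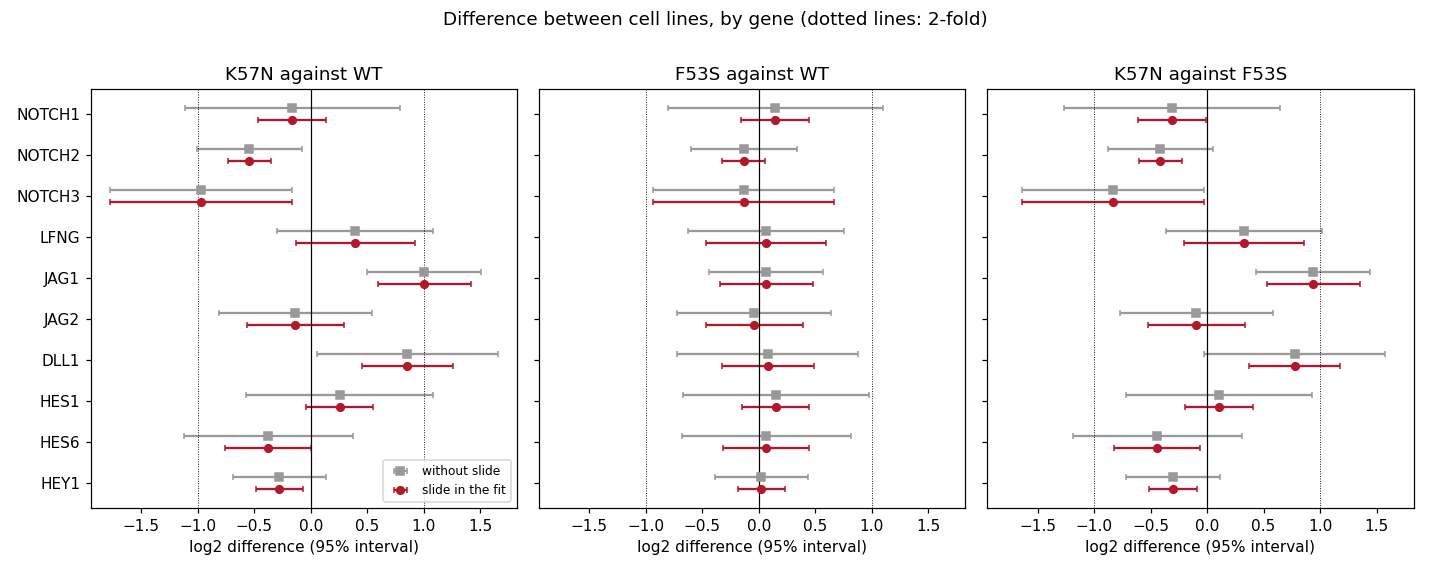
Log2 difference between lines (x axis) for the 10 genes (y axis) in each of 3 comparisons, with 95% intervals from limma without slide (grey squares) and with slide in the fit (red circles). In K57N against WT, the intervals with slide lay above 0 for JAG1 and DLL1 and below 0 for NOTCH2, NOTCH3 and HEY1, and in F53S against WT every interval held 0.

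A list of 49 other genes of the pathway was read in the same way, and 43 of them were tested. DLL4, MAML2, DTX1, DTX3, DTX4 and HES7 were not well above background on all 3 arrays of any line. In the fit without slide, 0 of 43 were called in each of the 3 comparisons, as with the methods' t-test with or without adjustment. Of all genes, that fit called 1.52% higher and 0.734% lower in K57N against WT, 0.963% and 0.25% in K57N against F53S, and 0% in each direction in F53S against WT. The median log2 difference of K57N from WT was -0.09, and that of F53S from WT was 0.03. Without WT replicate 1 they were 0.0003 and 0.17, and without F53S replicate 1 that of F53S was -0.14. With no limit on the fold, 1 gene passed in K57N against WT, the feedback regulator NRARP, named after its values were seen, where 1.73% of all genes were higher and 1.03% lower. NRARP, whose protein acts on the Notch intracellular domain and is itself a Notch target, gave 5.88, 5.64 and 5.65 in WT, 5.96, 5.70 and 5.67 in F53S, and 6.74, 6.65 and 6.69 in K57N cells. The K57N arrays lay above all others on both slides, by 0.97 ± 0.15 over WT (limma, adjusted p = 0.0158) and 0.92 over F53S (limma, adjusted p = 0.0331), just under the 2-fold limit.

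With slide in the fit, 1 of 43 genes, NEURL1, was called lower in K57N cells, against WT by -1.52 ± 0.30 and against F53S by -1.70 ± 0.30 (limma, adjusted p = 0.0129 and 0.0123), where 1.97% and 1.11% of all genes were called lower. NEURL1 encodes a ubiquitin ligase that acts on Notch ligands. It gave 4.32, 2.09 and 2.26 in WT, 4.77, 2.13 and 2.32 in F53S, and 3.76, 0.50 and -0.15 in K57N cells, so that the slides differed by more than the lines. Without slide its adjusted p was 0.731 (limma). With slide in the fit and no limit on the fold, 5 of 43 genes were higher and 7 lower in K57N than in WT cells, beside the 8.58% and 10.8% of all genes tested given above. The genes of this and the next sentences were named after their values were seen. Higher were NRARP, the ligand DLL3 (0.68), the fringe enzyme MFNG, the protease ADAM10, which makes the first cut in the receptor (0.69), and NUMB, an inhibitor of Notch (0.46). MFNG cleared background on all 3 K57N arrays but on 2 in WT and 1 in F53S, and so was tested only because of the line in which it was higher, which makes its difference uncertain. Among the 42 genes well above background on all 9 arrays, 4 were higher and 7 lower. Lower were the ligases for Notch ligands MIB1 (-0.46), MIB2 (-0.64), NEURL1 and NEURL1B (-0.95), the F-box protein FBXW7, which marks the intracellular domain for degradation (-0.39), and the repressors HES4 (-0.76) and HEY2 (-0.48). For MIB2 the WT array of slide 1 stood at 1.77, against 0.64 and 0.58 on slide 2, and for NEURL1B at 0.05, against -1.08 and -1.04. Their differences thus rest in large part on that array. Among genes of the nuclear complex (4 tested) and the corepressors (7 tested), 0 passed with slide in the fit in limma. The 9 tested genes for cleavage of the receptor held 1, ADAM10, and the subunits of gamma-secretase lay between -0.23 and 0.24. RBPJ itself differed by -0.02. In F53S cells 0 of 43 passed against WT with slide in the fit (limma), as did 0% of all genes tested in either direction.

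**Figure D4:**
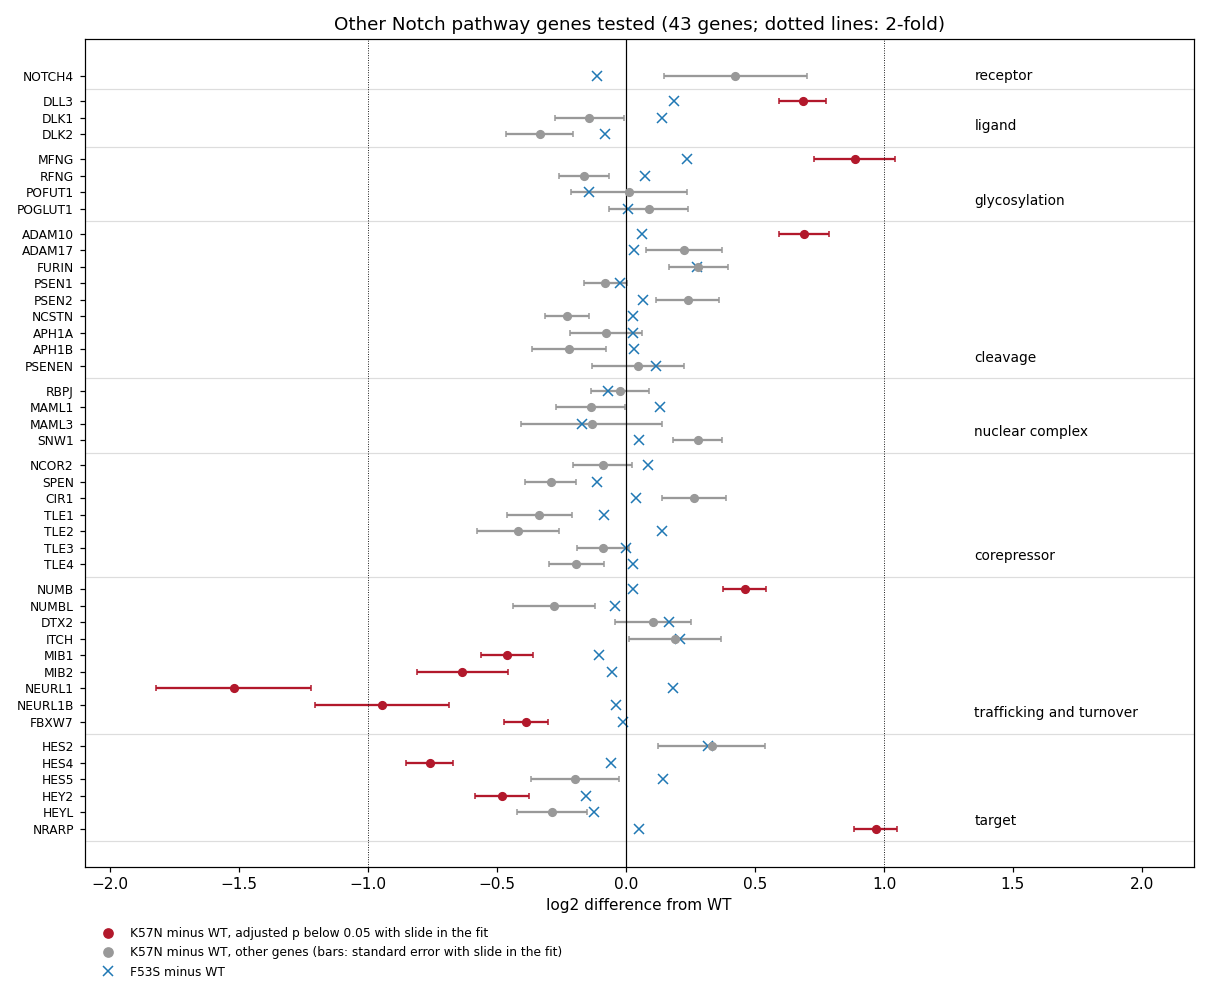
Log2 difference from WT (x axis) for the 43 other pathway genes tested (y axis, by role). Circles are K57N with the standard error from the fit with slide, red where the adjusted p was below 0.05, and crosses are F53S. NRARP and NEURL1 lay at 0.97 and -1.52 in K57N cells, and the F53S values lay between -0.17 and 0.32.

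The genes whose values over the 9 arrays were most like those of JAG1 were found after centering each gene within each slide, by the root mean square difference in log2 signal over 19147 genes. The nearest was TOP1, which encodes DNA topoisomerase I, at 0.05, followed by a transcript model without a gene symbol, TMEM132E, PAQR5 and EFNB2, at 0.07 to 0.08. EFNB2 encodes the membrane ligand ephrin-B2. No other member and no gene of the pathway list was among them, which is uninformative for so few genes out of 19147.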

How the data were processed

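The authors deposited, for each of the 9 arrays, the intensity of each spot as processed by Agilent Feature Extraction 10.10.1.1 (background subtracted and corrected for trends within the array), and a table of log2 values, which differ from the log2 of that intensity by a shift common to an array, to within 0.02 for at least 99.5% of probes. The method of normalization is not given in the sources used here. The log2 of the processed intensity was taken, and the 75th percentile over non-control spots of the array was subtracted. Spots marked uneven or as outliers were left out and spots of a probe averaged. Probes well above background on all 3 arrays of a line were tested with limma 3.58.1 in R 4.3.3, with 1 mean per line over all 9 arrays and Benjamini-Hochberg adjustment over all probes. Genes were called where adjusted p was below 0.05 and the difference over 2-fold. Gene names were those of the slide 2 files, and the brightest tested probe stood for a gene. The procedure was tested on simulated data. These had the spread of slide 2 on every array and the same difference between lines on both slides. The simulation thus does not cover differences between lines that change with the slide. Figures were drawn with matplotlib 3.10.9.

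After removal of each line's mean, arrays of the same replicate number correlated across genes with r of 0.35 to 0.88. Arrays of different numbers on slide 2 correlated with 0.44 to 0.66, and arrays on different slides with -0.81 to -0.48. The arrays thus went together by slide. On slide 2 the values for the same number (0.35 to 0.78) overlapped those for different numbers, so pairing by number was not established there.

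The members, the pathway list and the tests were chosen with earlier results of these data known. Pathway genes were named where called in the fit with or without slide, and others as stated. Alternatives were normexp (offset 50), quantile normalization, other filters on dim probes, averaging the probes of a gene, fits of only the lines compared, the slide or the replicate number as a block, slide 2 alone, the deposited table, the methods' t-test, no limit on the fold, and leaving out each array. The slide block and slide 2 with no limit on the fold were added after seeing the data. The number of arrays limits the precision.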

Additional observations from a re-analysis of the deposited data

Results flagged for a closer look

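For some members the difference between lines itself differed between slides, tested as the interaction of line and slide in limma with adjustment over all probes. Slide 1 holds 1 array per line, so each value rests on a lone array assumed to vary like the others. This interaction passed for 13.9% of all probes in K57N against WT, 23.6% in K57N against F53S and 0.114% in F53S against WT. Given as the log2 difference on slide 2 minus that on slide 1, the values for K57N against WT were 1.80 for NOTCH3, 0.90 for JAG2, -0.80 for DLL1, 0.96 for LFNG probe 1, 0.64 for HES6 probe 1 and 0.73 for HES6 probe 3. For K57N against F53S they were 0.55 for NOTCH1 probe 1, 1.61 for NOTCH3, -0.78 for JAG1, 0.72 for JAG2, -0.79 for DLL1 and 1.15 for LFNG probe 1. For the 4 HES6 probes they were 0.79, 0.65, 0.70 and 0.52. The same K57N array of slide 1 stands in all of them, and the cause was not tested.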

How the results depend on the processing

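Of 720 recomputed differences of single members, 660 kept their sign and their side of the threshold, 22 passed it where they had not, and 38 turned sign, 26 of them in F53S against WT and none with a size over 0.33 before. Member and pathway counts of 0 went above 0 in the settings that follow. In K57N against WT, 1 member (JAG1) was called higher with the replicate block, with the slide block, in the deposited table and with the methods' t-test without adjustment, and the count stayed at 0 when any 1 array was left out. With no limit on the fold, members called were 2 higher and 1 lower with the slide block and 3 higher and 3 lower on slide 2 alone, both in K57N against WT and in K57N against F53S. Of the pathway list, 1 gene (NEURL1) was called lower in K57N against WT and against F53S with the replicate block, with the slide block and on slide 2 alone, and 1 gene (NRARP) was called higher in K57N against WT on slide 2 alone, in the deposited table, with the mean of a gene's probes, with no limit on the fold and without WT replicate 1. NRARP was called higher in K57N against F53S with the mean of a gene's probes, with no limit on the fold and without F53S replicate 1. With no limit on the fold, the list gave 5 higher and 7 lower against WT and 5 and 3 against F53S with the slide block, and 8 and 8 against WT and 5 and 6 against F53S on slide 2 alone. The cause was not tested. Over all genes (19205 tested unless given), calls in K57N against WT numbered 291 higher and 141 lower, 494 and 378 with the slide block, 484 and 359 with the replicate block, 473 and 253 on slide 2 alone, 440 and 311 with the unadjusted t-test, 318 and 126 in the deposited table, 240 and 90 with 2 groups at a time, 155 and 103 of 17043 that cleared background on all 9 arrays, 145 and 44 with normexp, 141 and 23 of 38553 with no filter on dim probes, and 82 and 26 with the adjusted t-test. In K57N against F53S they numbered 185 and 48, and in the same order 364 and 213, 351 and 201, 344 and 131, 334 and 166, 198 and 41, 114 and 11, 94 and 30, 73 and 4, 63 and 5, and 24 and 2. Leaving out 1 array gave 158 to 342 higher and 48 to 184 lower against WT, where each WT or K57N array moved a count by over 1.5 times, and 67 to 192 and 6 to 49 against F53S, where each array but WT replicate 1 did. No scaling shifted the median of all genes by more than 0.1 (log2).

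Signs turned on slide 2 alone, with or without a fold limit, for JAG2 (0.16 in K57N against WT, 0.017 in F53S against WT, 0.14 in K57N against F53S) and for NOTCH1 in F53S against WT (-0.018). HEY1 in F53S against WT was -0.015 with normexp and -0.011 with quantile normalization, and LFNG in K57N against F53S was -0.078 as the mean of its probes. Leaving out 1 array gave, in K57N against WT, -0.42 to 0.11 for NOTCH1, -0.33 to 0.16 for JAG2 and -0.080 to 0.45 for HES1, and with the sign kept -1.14 to -0.63 for NOTCH3, 0.44 to 1.07 for DLL1, -0.54 to -0.10 for HES6, 0.23 to 0.63 for LFNG and -0.41 to -0.19 for HEY1. In K57N against F53S it gave -0.56 to 0.13 for NOTCH1, -0.24 to 0.14 for JAG2 and -0.23 to 0.38 for HES1, and with the sign kept -0.55 to -0.26 for NOTCH2, 0.36 to 0.99 for DLL1, -1.01 to -0.50 for NOTCH3, -0.61 to -0.11 for HES6 and 0.16 to 0.63 for LFNG. In F53S against WT it gave -0.29 to 0.42 for NOTCH1, -0.23 to 0.0085 for NOTCH2, -0.34 to 0.13 for NOTCH3, -0.28 to 0.25 for JAG2, -0.075 to 0.23 for DLL1, -0.23 to 0.30 for LFNG, -0.13 to 0.35 for HES1, -0.26 to 0.34 for HES6 and -0.040 to 0.12 for HEY1.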
